A study of Mus musculus with 6 samples.

Results

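Snai1, Snai2, Twist1, Twist2, Zeb1, Zeb2, Prrx1 and Prrx2 encode DNA-binding factors known for holding cells in a mesenchymal state. These 8 genes were taken by symbol from the 35976 genes of a read count table, and all 8 were among the 13761 genes with enough reads to be tested. The table covers polyadenylated RNA of chondrocytes from hind limb articular cartilage of mouse embryos (day 18.5, strain C57BL/6 x 129S4/SvJae), grown on tissue culture plastic for 16 population doublings. All cells, controls included, carried an inducible H3.3 histone transgene and received doxycycline at 2 µg/ml throughout. In the H3K9M group (replicates 1, 3 and 5) the transgene had methionine in place of lysine 9, and the labels give these cells as suppressed for H3K9 methylation. Replicates 1, 2 and 4 of the H3WT group carried the wild-type form. What drives the inducer in which cells, and whether replicates came from separate embryos, is not given in the sources used here, so p-values measure the spread between these libraries only.

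Snail and Zeb proteins are zinc-finger repressors that bind E-boxes, short DNA motifs found in the control regions of epithelial genes such as Cdh1. Twist proteins bind E-boxes as basic helix-loop-helix dimers, and Prrx proteins are paired-related homeobox factors of limb mesenchyme. In cartilage, Snail factors are known to hold down the matrix genes Col2a1 and Acan, and Twist1 is known to restrain chondrocyte and osteoblast maturation.

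The members of each family are paralogs, so the coding stretch in which they are most alike is shown for 3 families, to let a reader judge how far their reads can be told apart. Transcripts and gene positions are those of GENCODE M21 on GRCm38, which is the mm10 build that the submitters' processing notes name. Capitals mark bases shared by both paralogs at the same place of an ungapped 60-base window, 5′ to 3′ on the coding strand.
Snai1 (chr2:167538195-167542814, coding bases 491 to 550, in the zinc fingers): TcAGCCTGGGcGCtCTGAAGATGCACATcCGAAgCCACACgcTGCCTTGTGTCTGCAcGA
Snai2 (chr16:14705852-14709385, coding bases 509 to 568): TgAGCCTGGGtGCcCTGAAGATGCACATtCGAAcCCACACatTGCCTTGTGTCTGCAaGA
Twist1 (chr12:33957671-33959829, coding bases 361 to 420, in the basic helix-loop-helix region): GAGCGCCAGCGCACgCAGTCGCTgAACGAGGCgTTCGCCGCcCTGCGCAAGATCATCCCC
Twist2 (chr1:91801461-91848028, coding bases 223 to 282): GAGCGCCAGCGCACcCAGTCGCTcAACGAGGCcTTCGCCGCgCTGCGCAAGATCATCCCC
Prrx1 (chr1:163245119-163313710, coding bases 295 to 354, in the homeodomain): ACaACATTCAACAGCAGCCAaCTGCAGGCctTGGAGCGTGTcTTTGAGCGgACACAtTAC
Prrx2 (chr2:30834972-30881251, coding bases 307 to 366): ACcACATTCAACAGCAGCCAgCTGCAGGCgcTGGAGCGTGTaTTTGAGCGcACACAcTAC
Of these 60 bases, 52 were shared by the Snail pair, 56 by the Twist pair and 53 by the Prrx pair. The longest run shared without a mismatch was 22 bases for Snail, 23 for Twist and 19 for Prrx, over all ungapped placements of the coding sequences that overlapped by 60 bases or more.

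Snail proteins recognise the E-box CAGGTG, read CACCTG on the opposite strand, and Snai1 is known to repress its own promoter through such a box. RefSeq promoters on GRCm38.p6 were matched for 6 of the 8 genes and searched over the 250 bases before each annotated start for CANNTG, which includes CAGGTG and CACCTG. The Snai1 and Twist1 windows are shown because their fold changes had opposite signs, though the groups overlapped for Twist1. Any CANNTG is in capitals.
Snai1 promoter (chr2:167537945-167538194, plus strand): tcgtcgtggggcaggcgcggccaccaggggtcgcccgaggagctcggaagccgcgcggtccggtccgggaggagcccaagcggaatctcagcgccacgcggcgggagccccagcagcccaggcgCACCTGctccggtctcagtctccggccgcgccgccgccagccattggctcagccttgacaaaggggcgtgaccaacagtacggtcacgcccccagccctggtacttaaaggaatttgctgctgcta
Twist1 promoter (chr12:33957421-33957670, plus strand): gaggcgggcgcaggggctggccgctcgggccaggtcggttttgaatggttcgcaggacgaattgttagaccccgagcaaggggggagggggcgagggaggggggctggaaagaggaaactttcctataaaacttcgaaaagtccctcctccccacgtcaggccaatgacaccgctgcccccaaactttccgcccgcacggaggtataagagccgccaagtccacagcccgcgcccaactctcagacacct
The Snai1 window held 1 match, a CACCTG. The windows of Twist1, Twist2, Prrx1 and Prrx2 and the 4 alternative windows of Zeb2 held 0 matches. Among all 32851 promoter windows of this length 66.2% held a CANNTG and 17.2% a CAGGTG or CACCTG. A match describes letters only, and binding was not measured. Whether matches go with the direction of a difference was not tested.

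Libraries held 15113675 to 19606082 counted reads. The label of chondrocyte was read beside 20 cartilage genes. All passed the filter on low counts, which by itself does not establish cell identity. Col2a1, the main collagen of cartilage, reached 4910 to 14100 CPM (normalised read count, scaled between libraries by TMM), beside high fibroblast-like transcripts such as Vim (4630 to 7360 CPM). H3WT replicate 2 stood apart from its group on the first principal component (49.1, against -56.2 and -51.5 in the other H3WT libraries). H3K9M replicate 3 also lay apart from its group there (51, against -2.82 and 10.4 in H3K9M replicates 1 and 5). On the second component H3WT replicate 2 again stood apart from its group (-71.5, against -11.4 and -14.4). H3WT replicate 2 had the highest summed cartilage signal, 20000 CPM. Markers of skeletal muscle also moved with the group. The 12 markers summed to 142, 221 and 23.4 CPM in H3K9M replicates 1, 3 and 5 and to 8.14, 9.91 and 4.89 CPM in H3WT replicates 1, 2 and 4. Myod1, a defining muscle factor, was at 19.5, 57.0 and 4.29 CPM in H3K9M and at 0, 1.04 and 0 CPM in H3WT, in the same replicate order. Myog, another, was at 4.02, 9.42 and 0.204 CPM in H3K9M and at 0 in H3WT, while Myf5, Myf6, Myh8 and Pax7 were at 0 in all 6 libraries. Blood and macrophage markers (5 of 10 at 0 in every library) summed to 8.04 to 16.5 CPM in H3K9M and 3.84 to 6.29 CPM in H3WT, endothelial markers (3 of 8 at 0) to 2.55 to 3.67 against 4.27 to 7.84 CPM, and nerve markers (2 of 7 at 0) overlapped. Ptprc, Adgre1, Tyrobp and Itgam were among the blood and macrophage markers at 0. The 3 that were tested each overlapped between groups. Cd68, with the most reads, was at 2.61, 12.8 and 4.74 CPM in H3K9M and 0.618, 3.37 and 2.0 CPM in H3WT. The part of such cells in the results was not tested. In bulk RNA, fewer cells of a type and less RNA per cell cannot be told apart.

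Both Snail genes had lower values in every H3K9M library than in any H3WT library. The fitted log2 fold changes were -0.84 for Snai1 and -0.91 for Snai2. Zeb1 and Prrx2 had the same order of groups with smaller differences, and Zeb2, Prrx1 and both Twist genes overlapped between groups. After adjustment over all genes 0 of the 8 differences passed. In the edgeR quasi-likelihood fit over all 13761 tested genes 0 (0%) had a Benjamini-Hochberg adjusted p under 0.05, while 794 lower and 883 higher genes (6.42%) had an unadjusted p under 0.05. At that unadjusted level 4 of the 8 genes were lower in H3K9M and 0 higher, where 5.77% of all tested genes were lower. The same 4 genes (Snai1, Snai2, Zeb1 and Prrx2) had groups that did not overlap, lower in H3K9M, as did 8.68% of all tested genes. The median log2 fold change of the 8 genes was -0.30, and that of all tested genes was -0.003.

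**Figure D1:**
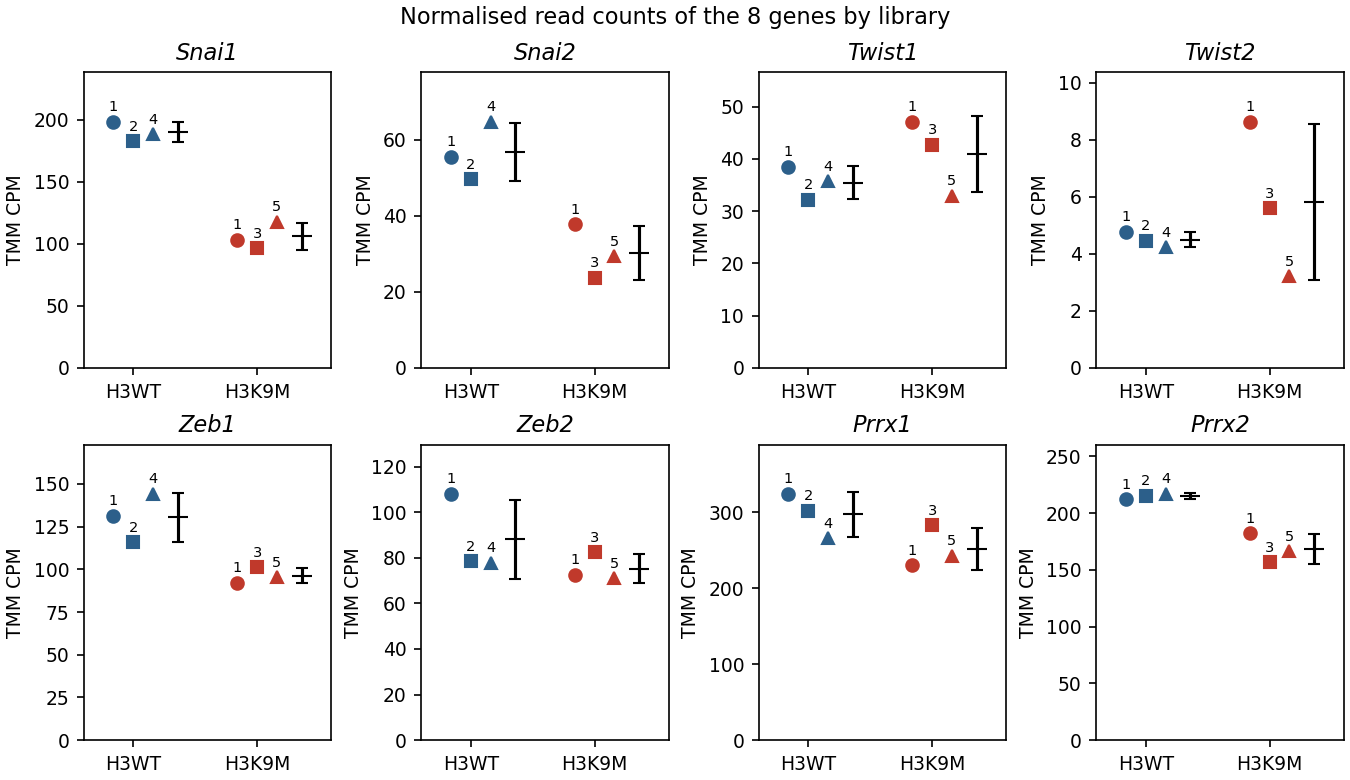
Normalised read count (TMM CPM, vertical axis from 0) of each of the 8 genes in H3WT (blue) and H3K9M (red) libraries, with replicate numbers beside the points and the mean ± SD of 3 libraries as a bar. The groups do not overlap for Snai1, Snai2, Zeb1 and Prrx2, and overlap for the other 4 genes.

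Snai1, the founding Snail repressor, had 1540, 2000 and 2308 reads in replicates 1, 3 and 5 of H3K9M, against 3536, 3520 and 3197 in H3WT replicates 1, 2 and 4. After scaling these were 103, 96.6 and 118 CPM against 199, 183 and 188 CPM. The highest H3K9M library therefore lay well under the lowest H3WT library, and the libraries within a group lay close together. H3K9M libraries averaged 106 ± 10.8 CPM and H3WT libraries 189.8 ± 8.04 CPM (SD, n = 3 per group). On the log2 scale the difference was -0.84 (SE 0.12, 95% interval -1.12 to -0.57, adjusted p 0.147, edgeR quasi-likelihood test), which is a level 1.79-fold lower (1.48 to 2.17). By unadjusted p (0.000104) Snai1 ranked 9 among all tested genes.

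The call on Snai1 depended on the setting while its size did not. The DESeq2 Wald test gave an adjusted p of 3.23e-06, with 1.43% of genes called lower in H3K9M. Testing every gene with a count gave 0.019 with edgeR, with 0.09% called lower. Leaving out H3WT replicate 2, which stood apart on both principal components, gave 0.043, with 0.379% called lower, and a log2 fold change of -0.86. Over all 13 alternatives the adjusted p ran from 3.23e-06 to 0.495, and the log2 fold change from -0.92 to -0.77.

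Snai2, the paralog also called Slug, had 564, 490 and 574 reads in replicates 1, 3 and 5 of H3K9M, and 988, 957 and 1099 in replicates 1, 2 and 4 of H3WT. Scaled values were 37.8, 23.7 and 29.3 CPM against 55.5, 49.7 and 64.7 CPM. Again no H3K9M library reached the lowest H3WT library, but relative to the mean the spread within each group was wider than for Snai1. The means were 30.2 ± 7.10 CPM and 56.6 ± 7.61 CPM (SD, n = 3 per group), a log2 fold change of -0.91 (SE 0.20, 95% interval -1.37 to -0.45, adjusted p 0.206, edgeR quasi-likelihood test). With DESeq2 the adjusted p was 0.0104, and it was the only one of the 13 alternatives in which Snai2 passed (highest value 0.495). The log2 fold change ran from -1.09 to -0.75 when each library was left out in turn, and it was -1.14 with a fit corrected for length and GC of the transcripts.

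The ratio of Snai1 to Snai2 reads within a library does not depend on scaling between libraries. For replicates 1, 3 and 5 of H3K9M it was 2.73, 4.08 and 4.02, and for replicates 1, 2 and 4 of H3WT 3.58, 3.68 and 2.91. The groups overlapped, and the mean log2 ratio differed by 0.08 (exact two-sided permutation test, p = 0.6, adjusted over 4 families 0.8; the smallest p that 3 against 3 libraries allow is 0.1). The log2 ratio averaged 1.83 ± 0.33 in H3K9M libraries and 1.75 ± 0.19 in H3WT libraries (SD, n = 3 per group).

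**Figure D2:**
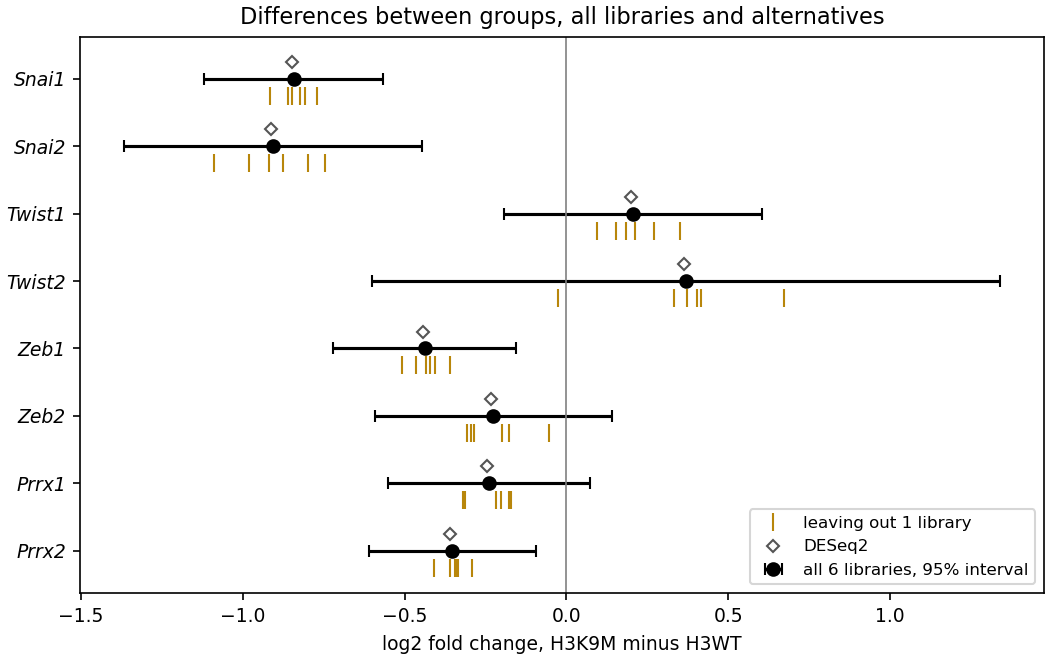
Log2 fold change (H3K9M minus H3WT, horizontal axis) of each gene from edgeR on all 6 libraries with its 95% interval (black), from DESeq2 (diamonds) and with 1 library left out at a time (ticks). The intervals of Snai1, Snai2, Zeb1 and Prrx2 lie below 0 before any correction for multiple testing, and those of the other 4 genes include 0.

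Zeb1, a repressor with zinc fingers at both ends of the protein, was at 92.2, 101 and 95.4 CPM in H3K9M replicates 1, 3 and 5 and at 131, 116 and 144 CPM in H3WT replicates 1, 2 and 4. The H3K9M libraries lay close together and under all H3WT libraries, among which replicate 2 was nearest. The means were 96.2 ± 4.54 CPM and 130.4 ± 14.2 CPM (SD, n = 3 per group; log2 fold change -0.44, SE 0.12, 95% interval -0.72 to -0.16, adjusted p 0.25, edgeR quasi-likelihood test). It passed the adjusted threshold under 0 of the 13 alternatives (lowest 0.0927, with DESeq2).

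Zeb2, its paralog (chr2:44983632-45117395), was at 72.5, 82.4 and 71.0 CPM in H3K9M against 108, 78.5 and 77.8 CPM in the H3WT libraries, in the same replicate order. H3WT replicate 1 alone was high, and the other libraries of both groups overlapped. The log2 fold change was -0.23 (SE 0.16, 95% interval -0.59 to 0.14, adjusted p 0.606, edgeR quasi-likelihood test), and leaving out single libraries gave -0.31 to -0.053, the smaller value without H3WT replicate 1. The Zeb1 to Zeb2 read ratio was 1.27, 1.23 and 1.34 in H3K9M and 1.22, 1.47 and 1.85 in H3WT, and these overlapped (difference of mean log2 ratios -0.22, exact permutation p = 0.4, adjusted 0.8, and -0.065 without H3WT replicate 4). In GENCODE M21 exons of Zeb1 overlap Gm10125 (0 to 16 reads per library) and exons of Zeb2 overlap Zeb2os (16 to 55 reads), each on the opposite strand, and Zeb2 also overlaps Mir5129 (14 to 111 reads) on its own strand. The strand setting of the counting is not given in the sources used here.

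Prrx2 and Prrx1 mark limb mesenchyme and act together in limb and skeletal growth. Prrx2 was at 182, 157 and 167 CPM in H3K9M replicates 1, 3 and 5 and at 213, 215.5 and 217 CPM in H3WT replicates 1, 2 and 4. The H3WT libraries were nearly equal, and all 3 H3K9M libraries lay under them. The means were 168.5 ± 12.9 CPM and 215 ± 2.30 CPM (SD, n = 3 per group; log2 fold change -0.35, SE 0.11, 95% interval -0.61 to -0.094, adjusted p 0.29, edgeR quasi-likelihood test). With the length and GC offset the log2 fold change was -0.27 and the unadjusted p was no longer under 0.05.

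Prrx1 was at 230.4, 283 and 243 CPM in H3K9M against 324, 302 and 266 CPM in H3WT, in the same replicate order. H3K9M replicate 3 lay above H3WT replicate 4, so the groups overlapped. The log2 fold change was -0.24 (SE 0.14, 95% interval -0.55 to 0.072, adjusted p 0.505, edgeR quasi-likelihood test). Its unadjusted p was under 0.05 only without H3K9M replicate 3 among the fits run. The Prrx1 to Prrx2 read ratio was 1.26, 1.81 and 1.46 in H3K9M and 1.53, 1.40 and 1.22 in H3WT (difference of mean log2 ratios 0.12, exact permutation p = 0.6, adjusted 0.8).

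The Twist genes had higher means in H3K9M, without a difference beyond the replicate spread. Twist1 was at 47.2, 42.8 and 33.0 CPM in H3K9M replicates 1, 3 and 5, against 38.5, 32.2 and 35.7 CPM in H3WT replicates 1, 2 and 4. H3K9M replicates 1 and 3 lay above all H3WT libraries and H3K9M replicate 5 lay among them. Those 2 libraries were also the ones with the most muscle signal (142 and 221 CPM), and the part of muscle cells in this was not tested. The log2 fold change of Twist1 was 0.21 (SE 0.17, 95% interval -0.19 to 0.60, adjusted p 0.671, edgeR quasi-likelihood test). It was 0.096 without H3K9M replicate 1 and 0.35 without H3K9M replicate 5.

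Twist2 was sparse, at 63 to 129 reads per library. It was at 8.64, 5.60 and 3.21 CPM in H3K9M and at 4.77, 4.46 and 4.24 CPM in H3WT, in the same replicate order. The H3K9M libraries spanned both sides of the narrow H3WT range. The log2 fold change was 0.37 (SE 0.42, 95% interval -0.60 to 1.34, adjusted p 0.777, edgeR quasi-likelihood test) and turned to -0.024 without H3K9M replicate 1, with 0.67 without H3K9M replicate 5. The interval admits a difference in either direction. Twist1 to Twist2 read ratios were 5.46, 7.63 and 10.3 in H3K9M and 8.07, 7.22 and 8.42 in H3WT (difference of mean log2 ratios -0.066, exact permutation p = 0.8, adjusted 0.8).

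Since the Snail genes had lower values in H3K9M and the Twist genes did not, the ratio of summed Snail reads to summed Twist reads was taken within each library, a choice made after the values were seen and given with no test. For replicates 1, 3 and 5 of H3K9M it was 2.53, 2.49 and 4.06, and for replicates 1, 2 and 4 of H3WT 5.87, 6.33 and 6.34. The groups did not overlap, and H3K9M replicate 5 lay nearest to H3WT. How often ratios of other genes separate the groups was not tested.

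**Figure D3:**
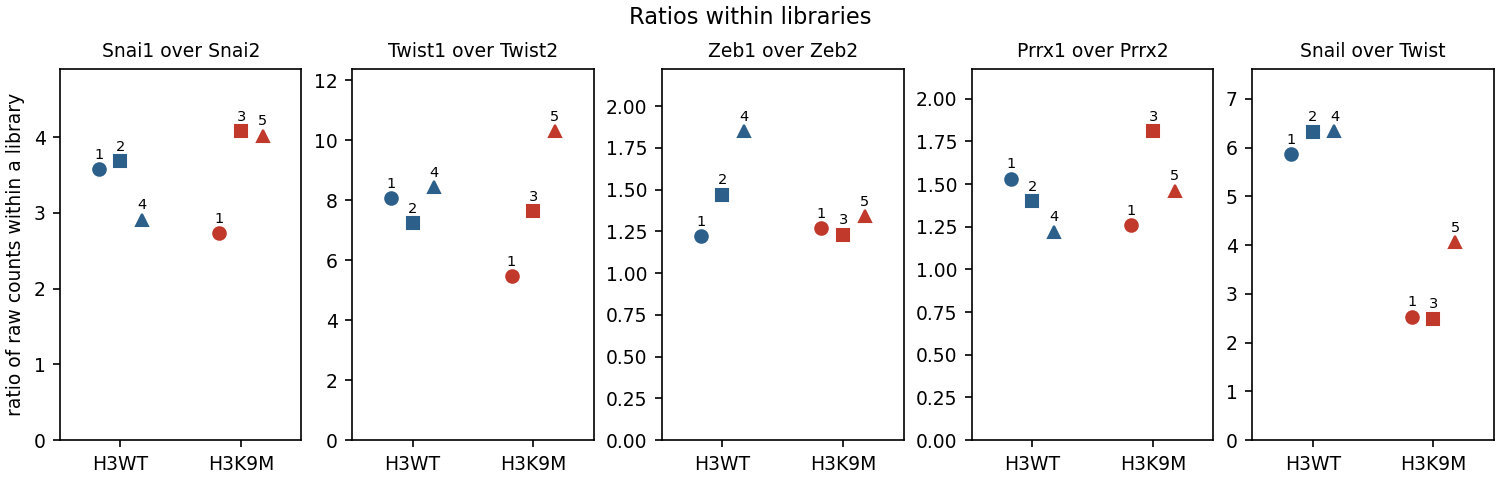
Ratio of raw read counts within a library (vertical axis from 0) for the paralogs of each family and for summed Snail over summed Twist reads, with replicate numbers beside the points (H3WT blue, H3K9M red). The paralog ratios overlap between groups in all 4 families. The Snail to Twist ratio, chosen after the values were seen and not tested, was 2.49 to 4.06 in H3K9M and 5.87 to 6.34 in H3WT.

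Levels of different genes were compared as CPM per kilobase of the longest annotated transcript. In H3WT the order from high to low was Prrx2 (149 ± 1.6), Snai1 (117 ± 4.96), Prrx1 (45.6 ± 4.55), Snai2 (28.0 ± 3.77), Zeb1 (22.5 ± 2.46), Twist1 (21.8 ± 1.94), Zeb2 (9.66 ± 1.89) and Twist2 (1.78 ± 0.106 CPM per kilobase; SD, n = 3). The ranges over H3WT libraries overlapped for Snai2 (24.6 to 32.0) and Zeb1 (19.9 to 24.8), and for Zeb1 and Twist1. Differences between genes within the same library were not tested, so overlap of ranges does not show equal levels. In H3K9M the first 3 places by longest transcript were the same, with Prrx2 at 117 ± 8.98, Snai1 at 65.3 ± 6.67 and Prrx1 at 38.6 ± 4.21 CPM per kilobase. Twist1 then came next (25.2 ± 4.47), ahead of Zeb1 (16.6 ± 0.782) and Snai2 (15 ± 3.51), of which the last 2 overlapped. Zeb2 (8.25 ± 0.676) and Twist2 (2.31 ± 1.08 CPM per kilobase) closed the order in both groups.

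By this level Snai1 lay above 96.8% of 12976 ranked genes in H3WT and above 93.4% in H3K9M. Snai2 lay above 82.4% and 68.1%, Prrx2 above 97.5% and 96.7%, and Twist2 above 20.0% and 23.7%, in the same group order. The order rests on the transcript length chosen. With the median length of annotated transcripts, Zeb1 would stand at 96.6 CPM per kilobase in H3WT and 71.3 in H3K9M, above Prrx1 (60.1 and 50.9) in both groups and above Snai1 (65.3) in H3K9M. Zeb2 would stand at 50.0 and 42.7 CPM per kilobase, above Snai2 and Twist1 in both groups.

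**Figure D4:**
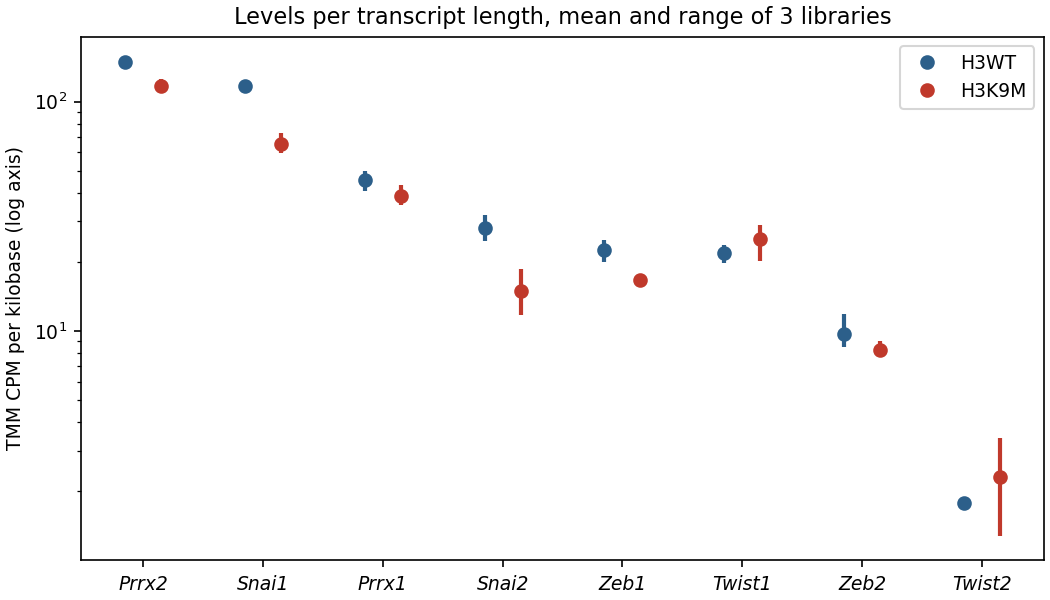
Level of each gene in TMM CPM per kilobase of its longest transcript (log axis), with the mean as a point and the range of 3 libraries as a line, for H3WT (blue) and H3K9M (red). By this length Prrx2, Snai1 and Prrx1 lead in both groups, and Snai2 passes from above Twist1 in H3WT to below it in H3K9M.

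Likeness of pattern was described by Pearson's r of log2 CPM over the 6 libraries, which share group differences and scaling. Among the 8 genes, Prrx2 followed Snai2 (r = 0.978) and Snai1 (r = 0.931), Snai1 followed Snai2 (r = 0.904), and Zeb1 followed Snai1 (r = 0.887). Twist1 was most like Twist2 (r = 0.898), and Prrx1 was most like Zeb2 (r = 0.833). Outside the 8 genes, those most like Snai1 were Zfp689 (r = 0.996), Mprip (0.995) and C1galt1 (0.992). Those most like Snai2 were Ehbp1 (r = 0.997), Prkd1 (0.997) and Emsy (0.995). Of 13753 genes, 69 reached r over 0.95 with Snai1 and 89 with Snai2.

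Other genes of the pathway were taken from lists, and in each list 0 tested genes passed an adjusted p of 0.05 (edgeR quasi-likelihood test), so the values below describe these libraries. DESeq2 called 390 of 13752 genes (2.84%). Among them were 1 family relative, Id4 (an inhibitor of dimer partners), 1 upstream signal, 3 mesenchymal genes, 2 cartilage genes and 2 muscle markers. Fgfr3 is counted as a signal and as a cartilage gene. With every counted gene tested (36 called, 0.18%) 1 relative and 1 mesenchymal gene passed. Without H3WT replicate 2 (91 called, 0.639%) Id4 passed. The 794 lower and 883 higher of all 13761 genes at an unadjusted p under 0.05 are the background to the counts below. Of 14 family relatives 4 were tested. Scx, a helix-loop-helix factor of tendon related to Twist, was at 75.1 to 90.7 CPM in H3K9M and 33.6 to 51.8 CPM in the H3WT libraries (log2 difference 0.91, SE 0.19, adjusted p 0.191), and passed with DESeq2 (0.00534) and with every counted gene tested (0.0438). Alx4, a limb homeobox gene, was at 2.95 to 5.09 against 5.50 to 11.6 CPM (-1.18, SE 0.39, adjusted p 0.30), and Shox2, another, at 48.8 to 62.4 against 59.5 to 80.9 CPM (-0.42). Snai3, the remaining Snail gene, had at most 5 reads in a library.

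Twist factors bind DNA with E proteins (Tcf3, Tcf4 and Tcf12), and Id proteins take E proteins away. All 7 of these genes were tested, and 1 was lower and 1 higher at an unadjusted p under 0.05. Id4 was at 6.50, 3.53 and 3.42 CPM in H3K9M and at 29.0, 9.55 and 25.3 CPM in H3WT, with no overlap (log2 difference -2.25, SE 0.47, adjusted p 0.197). It passed with DESeq2 (adjusted p 0.000444) and without H3WT replicate 2 (0.0291), and its highest adjusted p among the alternatives was 0.495. Id2 was at 64.6 to 87.9 against 41.9 to 67.9 CPM, which overlapped (0.60, SE 0.21, adjusted p 0.324). The E protein genes lay close to 0 on the log2 scale, with Tcf3 at -0.12 (SE 0.16), Tcf4 at 0.008 (SE 0.15) and Tcf12 at 0.03 (SE 0.13), and the sign of each turned in at least 1 alternative. Id1 (0.18) and Id3 (0.02) also turned sign in some.

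Snail and Zeb proteins recruit chromatin enzymes, among them histone H3 lysine 9 methyltransferases. Of 19 such partner genes 2 were lower and 0 higher at an unadjusted p under 0.05, with a median of -0.11 that was -0.039 without H3K9M replicate 3. Ehmt1, which encodes the methyltransferase GLP, was at 56.1 to 65.7 CPM in H3K9M and 79.5 to 87.7 CPM in H3WT (-0.47, SE 0.12, adjusted p 0.227). Ehmt2, which encodes its partner G9a, was at 178 to 185 against 216 to 247 CPM (-0.34, SE 0.11, adjusted p 0.299), but at -0.078 with the length and GC offset. Suv39h1 overlapped (-0.30, SE 0.22, and -0.14 without H3K9M replicate 3). Kdm1a, a demethylase that docks on the Snail repressor domain, was at 91.2 to 105 against 79.8 to 87.4 CPM (0.25, SE 0.12, adjusted p 0.428), and Suv39h2 had the next smallest p among higher genes (0.28, SE 0.29, and 0.071 without H3K9M replicate 1).

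Of 13 genes that set Snail protein stability or location, 3 were lower and 1 higher at an unadjusted p under 0.05 (median -0.24, and -0.154 without H3K9M replicate 5). Lats2, a kinase that holds Snail in the nucleus, was at 148 to 197 CPM in H3K9M and 206 to 315 CPM in H3WT (-0.59, SE 0.18, adjusted p 0.28). Ctdsp1, a phosphatase that acts on Snail, was at 80.2 to 111 against 137 to 140 CPM (-0.47, SE 0.14, adjusted p 0.28). On the higher side were Cops2, a COP9 signalosome subunit (0.28, SE 0.11, adjusted p 0.378, and 0.071 with the length and GC offset), and Pak1, a kinase (0.49, SE 0.22, adjusted p 0.416, and 0.32 without H3K9M replicate 3). Of 25 upstream signals 4 were lower and 0 higher (median -0.28, and -0.134 with the length and GC offset). Fgfr3, the receptor that slows cartilage growth, was at 10.4, 20.3 and 32.6 CPM against 32.3, 83.5 and 89.4 CPM (-1.69, SE 0.52, adjusted p 0.297, and 0.0108 with DESeq2). Tgfbr2, a TGF-beta receptor, was at 173 to 232 against 246 to 463 CPM (-0.72, SE 0.24, adjusted p 0.308, and -0.41 without H3WT replicate 4). Hmga2 (0.67, SE 0.64) and Notch1 (0.15, SE 0.19) had the smallest p among higher genes, and each turned sign without H3K9M replicate 3 (-0.036 and -0.051).

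Genes that these factors are known to repress or to accompany were read in the same way. Of 31 epithelial genes only 13 were tested, 0 lower and 2 higher at an unadjusted p under 0.05, with a median of 0.42 that was -0.003 without H3WT replicate 4. Genes were filtered anew in that fit, so its median can cover other genes of the list. Cdh1, the best known Snail target, was too low to test, at 0 to 1.88 CPM. Jup, which encodes the junction protein plakoglobin, was at 57.7 to 75.4 CPM in H3K9M and 38.1 to 49.7 CPM in H3WT (0.58, SE 0.16, adjusted p 0.242). Pkp2, a desmosome gene, was at 20.1 to 35.5 against 8.67 to 22.1 CPM (0.85, SE 0.36, adjusted p 0.409). Ddr1 (-0.31, SE 0.23, and -0.061 with the length and GC offset) and Tjp1 (-0.11, SE 0.13) had the smallest p among lower genes.

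All 27 mesenchymal genes were tested, 2 lower and 2 higher at an unadjusted p under 0.05 (median -0.089, 0.044 without H3K9M replicate 3 and -0.396 without H3WT replicate 2). By sign 20 were lower and 7 higher, so the genes named here do not stand for the whole list. S100a4, a calcium-binding protein of fibroblasts, was at 509 to 636 CPM in H3K9M and 235 to 320 CPM in H3WT (1.01, SE 0.16, adjusted p 0.17). It passed with DESeq2 (1.41e-05) and with every counted gene tested (0.0133), and its log2 difference was 0.64 with the length and GC offset. Fn1, which encodes fibronectin, was at 17000 to 22100 against 13800 to 14700 CPM (0.44, SE 0.18, adjusted p 0.382, and 0.69 with that offset). Cdh11, the cadherin of loose mesenchyme, was at 52.4, 18.4 and 54.8 against 160.2, 85.6 and 182 CPM (-1.77, SE 0.48, adjusted p 0.262, and 0.00169 with DESeq2). Mmp3, a matrix protease, was at 0.773 to 1.89 against 3.004 to 7.63 CPM (-2.20, SE 0.59, adjusted p 0.239, and 0.0208 with DESeq2). Vim (0.14, SE 0.21, and -0.014 without H3K9M replicate 3) and Cdh2 (0.39, SE 0.33, and 0.15 without H3WT replicate 2) overlapped between groups.

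By sign 19 of 20 cartilage genes were lower in H3K9M, against 6934 of all 13761 tested genes. The summed signal of the list overlapped between groups. It was 7520, 8100 and 11800 CPM in H3K9M replicates 1, 3 and 5. In H3WT replicates 1, 2 and 4 it was 7460, 20000 and 14100 CPM, so H3WT replicate 1 was the lowest library. At an unadjusted p under 0.05, 4 of the cartilage genes were lower and 0 higher (median -0.96). The groups did not overlap for 1 of the 20. Among other lists, 20 of 27 mesenchymal genes, 19 of 25 upstream signals and 3 of 13 epithelial genes were lower by sign. Without H3WT replicate 2, which stood apart on both principal components, the median of the cartilage genes was -0.26. Sox9 was at 114 to 181 CPM against 145 to 285 CPM (-0.60, SE 0.27, adjusted p 0.429), Col2a1 at 4970 to 8420 against 4910 to 14100 CPM (-0.61, SE 0.39), and Acan at 172 to 470 against 136 to 722 CPM (-0.26, SE 0.69), with overlap in each. Without H3WT replicate 2 these differences were -0.38 for Sox9, -0.22 for Col2a1 and 0.79 for Acan. Matn4, a matrilin, had the smallest p of the list (-2.54, SE 0.70, adjusted p 0.244, and 0.0165 with DESeq2), and Sox5 was the gene with a positive value (0.25, SE 0.45, and -0.26 without H3K9M replicate 3). Matn4 was low, at 2.08, 1.21 and 0.867 CPM in H3K9M and 2.36, 14.8 and 6.89 CPM in H3WT. Its difference was -1.73 without H3WT replicate 2. The Snai1 difference was -0.86 without H3WT replicate 2 and -0.84 with it.

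**Figure D5:**
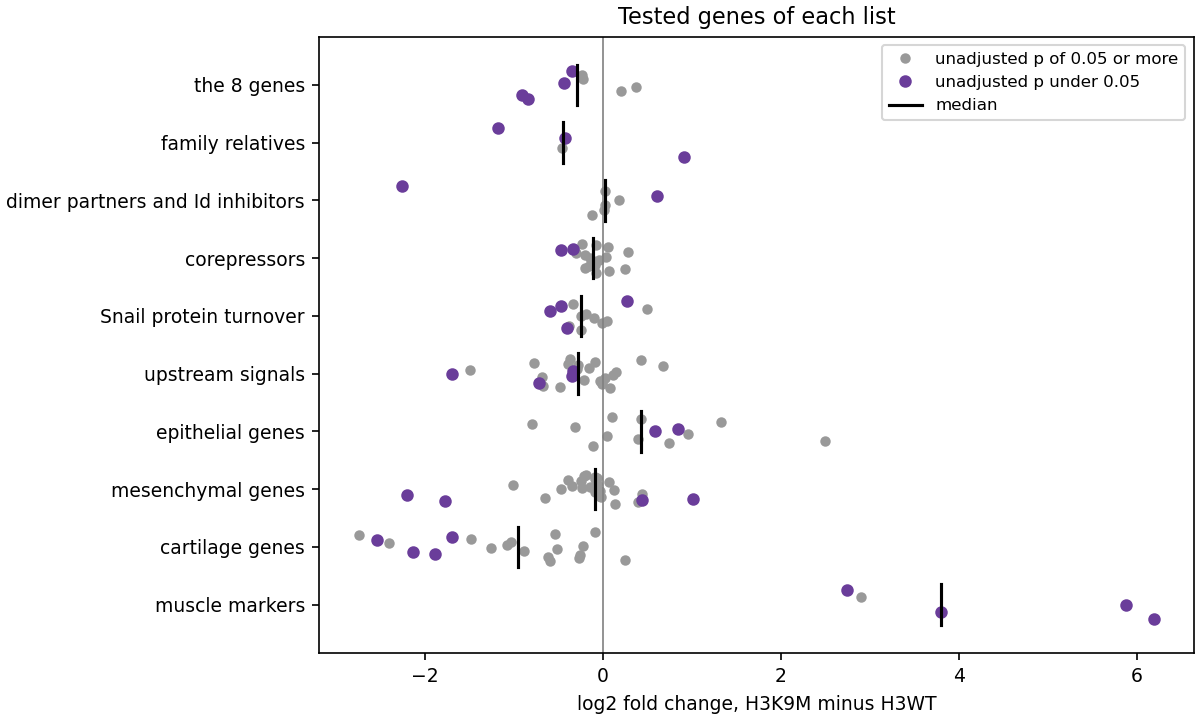
Log2 fold change (H3K9M minus H3WT, horizontal axis) of the 8 genes and of each tested gene of 9 lists, with the median as a bar and genes at an unadjusted p under 0.05 in purple. The medians were -0.30 for the 8 genes, 0.42 for epithelial genes and -0.96 for cartilage genes, and 5 tested muscle markers had a median of 3.8.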

How the data were processed

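The values deposited by the authors are raw counts of reads for each gene symbol, with 1 column per library and no pooling. Per the submitters' processing notes, HISAT2, featureCounts and DESeq2 were used with mm10. Their roles, versions, annotation and strand setting are not given in the sources used here. Counts totalled 15113675 to 19606082 per library, and 0 columns lay outside the series.

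Genes were kept by filterByExpr, scaled by TMM and fitted with edgeR 4.0.16 (glmQLFit, glmQLFTest, robust) in R 4.3.3, with group as the only term over 6 libraries. P-values were adjusted over 13761 genes (Benjamini-Hochberg, threshold 0.05). The SE is the log2 fold change divided by the root of F, and intervals are 95%. Log2 CPM used a prior count of 2, and read ratios a pseudocount of 0.5 for the test. Alternatives were DESeq2 1.42.0, limma-voom (limma 3.58.1), other scalings and filters, a loess offset (span 0.5) on length and GC content, and leaving out each library. With a library left out the genes were filtered anew. GENCODE M21 gave a length for 26763 of 35976 symbols. Scripts were tested on simulated counts. The genes and lists were chosen with earlier results of these data known. Named list genes are fixed ones and the 2 with the smallest p in each direction.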

Additional observations from a re-analysis of the deposited data

How the results depend on the processing

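The count of genes past the adjusted threshold was 0 with edgeR, 390 with DESeq2, 36 with all counted genes tested, and 0 to 91 when a library was left out, with 91 without H3WT replicate 2 and 2 without H3K9M replicate 3. It was 0 with limma-voom, the other scalings, at least 10 counts in every library and the offset. The causes were not tested. Snai1 passed with DESeq2 (log2 fold change -0.85), with all counted genes (-0.84) and without H3WT replicate 2, and ran from -0.92 to -0.77 over the left-out libraries. Snai2 passed with DESeq2 (-0.91). Snai1, Snai2 and Zeb1 kept an unadjusted p under 0.05, lower in H3K9M, in all 13 alternatives, and Prrx2 in all but the length and GC offset. The sign held in all 13 for each of the 8 genes except Twist2, which ran from -0.024 to 0.67 over the left-out libraries. Differences of log2 paralog ratios turned sign over the left-out libraries for Snail (-0.031 to 0.265, without H3K9M replicate 3 or 5 or H3WT replicate 4), Twist (-0.287 to 0.165, without H3K9M replicate 1) and Prrx (-0.022 to 0.235, without H3K9M replicate 3), and kept it for Zeb (-0.369 to -0.065, the latter without H3WT replicate 4). No paired analysis was possible because the groups share only replicate number 1. Twist2 had the fewest reads of the 8 genes (63 to 129 per library) and a biological coefficient of variation of 0.393; a limit from depth was not tested.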
